A study of Mus musculus with 2 samples.

Results

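Interferon-induced and antigen presentation genes were followed in the mouse hypothalamus in mice fed bezafibrate, a lipid-lowering fibrate and agonist of PPAR nuclear receptors, at a pair of times of day. The set was a list of 32 gene symbols, chosen and grouped with earlier results of these data known. It held 20 genes of the type I interferon response and 6 genes of MHC class I antigen presentation. The other 6 genes respond strongly to interferon gamma (guanylate-binding proteins, immunity-related GTPases and the transcription factor Irf1). Of the 32, 31 had a probe, and 29 were above background on all 4 arrays, out of 21501 genes with a probe and 15909 above background on all 4 arrays. No probe by the name Xaf1 was used. Irf7 and Mx1 are the other exceptions: each had a spot that the scanner software marked as an outlier on 1 array, and Mx1 was not above background on the 3 arrays where its spot was kept.

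Square blocks of brain around the hypothalamus were collected at ZT10 and at ZT22, zeitgeber times counted in hours from lights on. The 4 groups were control mice at ZT10, bezafibrate mice at ZT10, control mice at ZT22 and bezafibrate mice at ZT22. RNA of 4 mice per group was pooled in equal amounts and hybridized to 1 one-colour array, so each group is 1 pool with no replicate, and pairs of arrays are described by ratios without a p-value. Per the labels, the animals were 8 weeks old at the start and received a normal diet for 2 weeks, bezafibrate at 0.5% of the feed over the next 2 weeks and a normal diet again for 5 weeks. The stage at which brains were taken is not settled by the labels, which also give no strain or genotype. The 4 arrays shared 1 slide, with the control pools at positions 1 and 2 and the bezafibrate pools at positions 3 and 4, so diet and side of the slide cannot be told apart. Between 68.7% and 74.6% of the features of an array were well above background, and none was saturated. In such bulk RNA, fewer cells of a type and less RNA per cell cannot be told apart.

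Interferons are secreted proteins that cells release on sensing viral nucleic acid. Type I interferons bind the receptor made of Ifnar1 and Ifnar2 and act through a complex with Stat2 and Irf9 that binds the interferon-stimulated response element (ISRE), whereas interferon gamma binds Ifngr1 and Ifngr2 and acts through the gamma-activated site (GAS). Their target genes block viral replication, attack vacuoles that hold microbes and raise the display of peptides on MHC class I. In the healthy brain most of these genes are transcribed at a low, steady level, by microglia, endothelium and neurons among others.

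Promoter sequences of the groups were read for the letters of these elements. The window from 250 bases before to 50 bases after the start site was available for 28 of the 32 genes in RefSeq (assembly GRCm38.p6), and was searched on both strands for GAAANNGAA, the first part of the ISRE core, and for TTCNNNGAA, the GAS. Usp18, Mx1, Mx2 and Iigp1 had no entry used here. Among the type I interferon genes, 13 of 17 held the ISRE letters and 5 held the GAS letters. Of the GBP/IRG genes and Irf1, 4 of 5 held the ISRE letters and 2 the GAS letters. Among the MHC class I genes, 1 of 6 (B2m) held the ISRE letters and 1 of 6 (Psmb8) the GAS letters. A gene counted when any of its windows matched. Of all 27025 RefSeq genes 9.76% held the ISRE letters and 9.55% the GAS letters, or 8.56% and 8.30% of all 32851 windows. A match describes letters and is not evidence of a bound factor. Equally, a window without a match can hold an element spelled with other letters, so the counts do not show that an element is absent.

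The 160 bases before the start site are shown for 5 genes that the results turn on: Ifit3, the gene with the largest difference between times; Isg15, a classical type I target; Bst2 and Gbp2, with the lowest ratios of their groups at ZT10; and Tap1, with the lowest ratio of the class I genes. They lie at chr19:34583369-34583528 on the plus strand, chr4:156200819-156200978 and chr8:71537473-71537632 on the minus strand, and chr3:142620503-142620662 and chr17:34187396-34187555 on the plus strand, and are written 5′ to 3′ with every ISRE or GAS match in capitals.
Ifit3: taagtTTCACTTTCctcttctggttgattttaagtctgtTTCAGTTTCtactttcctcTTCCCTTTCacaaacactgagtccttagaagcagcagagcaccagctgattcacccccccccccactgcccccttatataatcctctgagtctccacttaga
Isg15: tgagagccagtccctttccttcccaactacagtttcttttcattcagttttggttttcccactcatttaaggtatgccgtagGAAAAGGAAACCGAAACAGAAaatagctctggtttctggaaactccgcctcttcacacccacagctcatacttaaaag
Bst2: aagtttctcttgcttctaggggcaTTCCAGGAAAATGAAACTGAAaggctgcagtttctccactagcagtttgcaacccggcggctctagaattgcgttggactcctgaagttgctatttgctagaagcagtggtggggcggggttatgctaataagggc
Gbp2: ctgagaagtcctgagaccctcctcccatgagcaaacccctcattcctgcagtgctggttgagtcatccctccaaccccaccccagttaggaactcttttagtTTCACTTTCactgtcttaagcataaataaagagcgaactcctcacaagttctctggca
Tap1: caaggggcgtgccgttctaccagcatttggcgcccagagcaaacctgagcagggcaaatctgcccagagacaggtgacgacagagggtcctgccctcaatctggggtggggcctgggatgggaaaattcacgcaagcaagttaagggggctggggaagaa
Ifit3 holds 3 separate ISRE matches on the opposite strand, and Isg15 holds 3 that overlap in a single run. In Bst2 the GAS match overlaps the first of 2 ISRE matches. Gbp2 holds 1 ISRE match. The Tap1 window holds neither set of letters, and it shares 275 bases with the window of Psmb9, which is transcribed in the opposite direction from the same stretch.

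Each gene was read from its brightest probe by mean signal. Signals are processed scanner intensities, and ratios are on the log2 scale after each array was divided by its 75th percentile, so a ratio can differ from that of the printed signals. Scanner errors of the ratios, combined from the software's errors of the signals and not covering the spread between mice or pools, were 0.20 to 0.25 for all measured genes of the set but Ifi44. A gene counted as different in a comparison when it reached 1.5-fold.

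At ZT10 bezafibrate mice had lower signals than control mice for 22 of the 29 measured genes, with a median log2 ratio of -0.16. Over all genes above background on both arrays, 47.3% had a ratio below 0 and the median was 0.01. No gene of the set reached 1.5-fold, against 2.41% of 17312 genes 1.5-fold lower and 1.44% higher. At ZT22, 18 of 30 genes were lower with a median of -0.06, where 47.8% of all genes were below 0 and the median was 0.01. Again no gene of the set reached 1.5-fold, against 3.54% of 16959 genes lower and 2.0% higher. The 3 groups differed in these ratios: the type I interferon genes had medians of -0.08 at ZT10 and 0.08 at ZT22, the GBP/IRG genes and Irf1 -0.33 and -0.17, and the MHC class I genes -0.25 and -0.25. Of the 12 genes of the latter groups, 9 were lower at both times and 0 were higher at both. Because the groups were chosen with earlier results of these data known, these counts describe them and are not an independent test. The 9 include Irf1, whose ratios lay within the scanner error, and H2-K1. Other probes gave ratios above 0 at ZT10 for both genes (0.26 for Irf1, 0.08 and 0.58 for H2-K1). Of the 17 type I interferon genes above background on all 4 arrays, 5 were lower at both times and 4 higher at both. A ratio below 0 at both times was found for 24.8% of the 15909 genes above background on all 4 arrays. The share above 0 at both times was not computed.

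**Figure D1:**
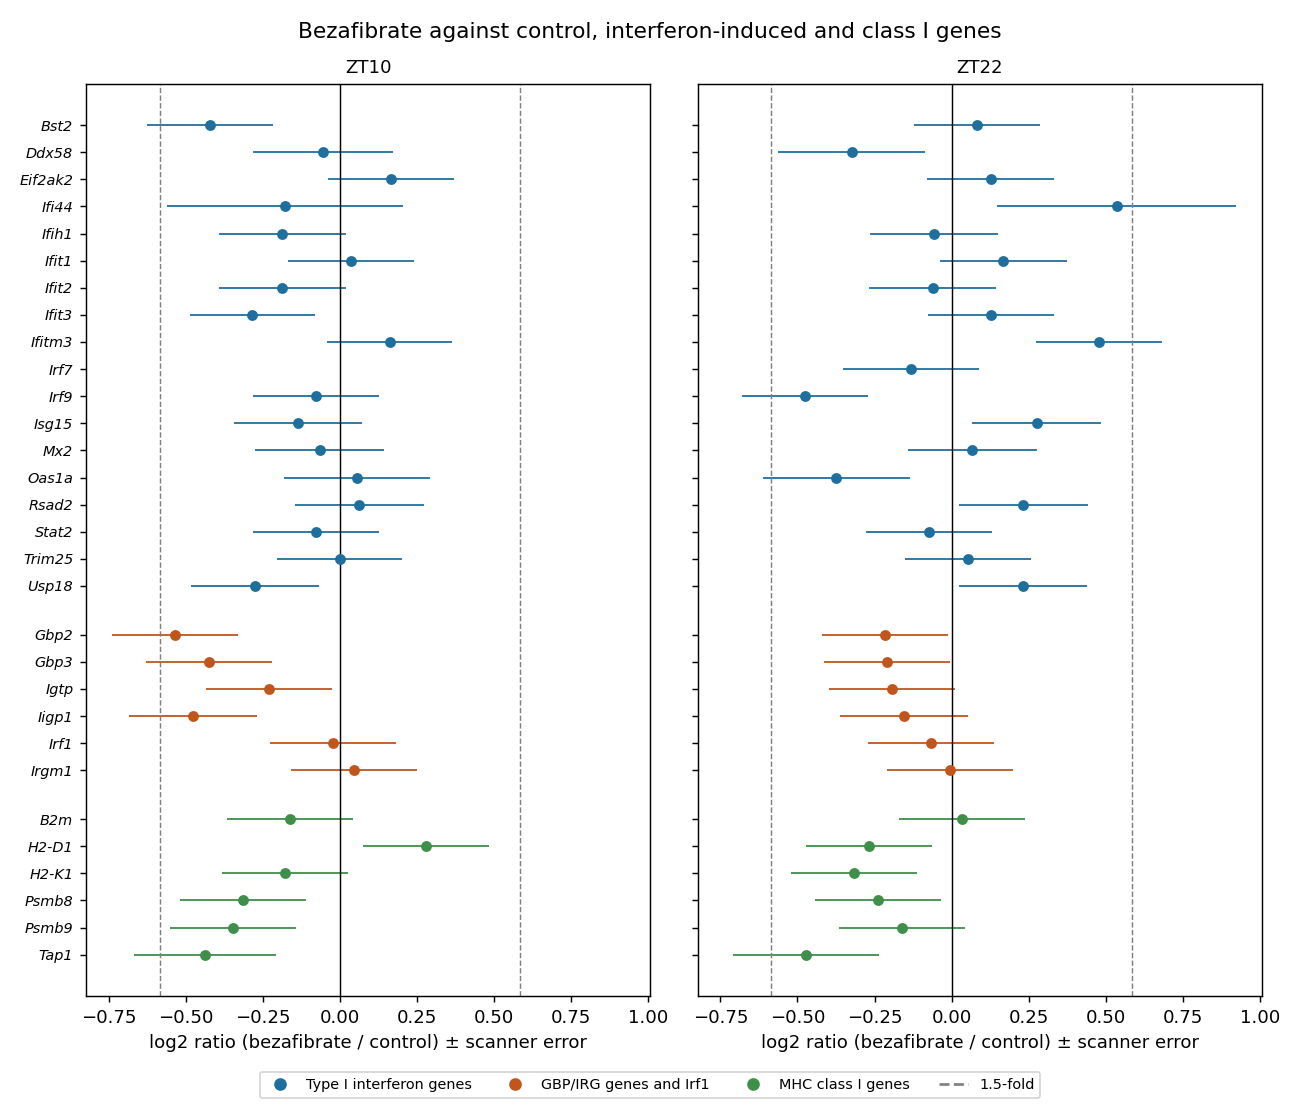
Log2 ratio of bezafibrate over control mice at ZT10 (left) and ZT22 (right) for each gene above background on both arrays; points are 1 pool against 1 pool, bars are the scanner error, and dashed lines mark 1.5-fold. The points of the GBP/IRG and class I genes lie mostly left of 0 in both panels, while the type I interferon genes lie on both sides of 0 at ZT22.

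The GBP/IRG genes encode interferon-inducible GTPases that gather on the membranes of microbe-holding vacuoles. Gbp2, a guanylate-binding protein, had signals of 424 in control and 304 in bezafibrate mice at ZT10, and of 351 and 267 at ZT22. Gbp3, a second member of that family, had 524 and 406 at ZT10, and 449 and 343 at ZT22. Both bezafibrate pools were below both control pools for each gene, with log2 ratios of -0.54 and -0.22 for Gbp2 and -0.42 and -0.21 for Gbp3. With normexp background correction the ratio of Gbp2 at ZT10 was -0.24. For both genes the ratio at ZT22 was about as large as the scanner error.

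Iigp1, an immunity-related GTPase, had signals of 170 and 127 at ZT10 and of 141 and 112 at ZT22 in control and bezafibrate mice. Its log2 ratios were -0.48 and -0.15. Igtp, also known as Irgm3, a GTPase that regulates the effector GTPases of the family, had 1150 and 1020 at ZT10, and 1180 and 913 at ZT22. For Iigp1 and Igtp, too, both bezafibrate pools lay below both control pools, and the ratios of Igtp were -0.23 and -0.19.

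Irgm1, another regulatory GTPase, stood apart from these 4. Its signals were 487 and 523 at ZT10 and 485 and 427 at ZT22, with log2 ratios of 0.05 and -0.01. Irf1, an interferon-induced transcription factor that drives many of the GBP genes, had 1720 and 1760 at ZT10, and 1860 and 1570 at ZT22. Its ratios were -0.02 and -0.07, within the scanner error, and leaving Irf1 out of the group moved the median at ZT10 from -0.33 to -0.42. A dimmer probe of Irf1 had ratios of 0.26 and -0.11 for diet, and its ratio of ZT22 over ZT10 in bezafibrate mice was -0.52, where the brighter probe gave 0.07.

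MHC class I molecules show peptides to CD8+ T cells. Their peptides are cut by a proteasome in which interferon replaces constitutive subunits by Psmb8 and Psmb9, and are pumped into the endoplasmic reticulum by Tap1 and Tap2. Tap1 had signals of 92.5 in control and 71.0 in bezafibrate mice at ZT10, and of 77.7 and 49.5 at ZT22. Both bezafibrate pools were below both control pools, with log2 ratios of -0.44 and -0.47. With normexp background correction the ratio at ZT22 was -0.19, within the scanner error. Psmb8, an immunoproteasome subunit, had 643 and 537 at ZT10, and 536 and 402 at ZT22, with ratios of -0.32 and -0.24. A second probe of Psmb8 gave -0.32 and -0.11. Psmb9, the subunit encoded beside Tap1, had 510 and 417 at ZT10, and 482 and 381 at ZT22, with ratios of -0.35 and -0.16. For Psmb9 both bezafibrate pools were below both control pools, and for Psmb8 this held after scaling, since its processed signals of 537 in bezafibrate mice at ZT10 and 536 in control mice at ZT22 were nearly equal.

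The constitutive proteasome, with brighter probes (the dimmest, Psmb2, at 1020 to 1180), gives a comparison for these subunits. All 14 of its listed genes were above background on all 4 arrays, their median ratios were 0.00 at ZT10 and 0.04 at ZT22, their range over both times was -0.12 to 0.14, and none of the 14 reached 1.5-fold in any of the 4 comparisons. Psmb10, the remaining interferon-inducible catalytic subunit, had signals between 16500 and 19000 on the 4 arrays and ratios of 0.02 and 0.04.

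H2-D1 and H2-K1 are the classical class I heavy chains. H2-D1 had signals of 6110 and 7710 at ZT10 and of 8110 and 5960 at ZT22, so that the bezafibrate pool was the higher at ZT10 and the lower at ZT22, with log2 ratios of 0.28 and -0.27. H2-K1, measured by 10 repeated spots per array, had mean signals of 6637 and 6104 at ZT10, and 8345 and 5927 at ZT22. Its ratios were -0.18 and -0.32, and the spots of an array varied by little: the ratio of single spots ranged from -0.22 to -0.14 at ZT10 and from -0.35 to -0.26 at ZT22. Other H2-K1 probes gave 0.08 and -0.23, and 0.58 and -0.32, so the direction at ZT10 depended on the probe. The class I genes share long stretches of sequence and the probe sequences were not used here, so which heavy chain each probe measured is uncertain. H2-T23 and H2-Q7, non-classical class I genes, had ratios close to those of H2-D1, at 0.33 and -0.28 for H2-T23 and 0.32 and -0.32 for H2-Q7. B2m, the light chain of every class I molecule, had 4540 and 4220 at ZT10, and 5070 and 4590 at ZT22. Its ratios were -0.16 and 0.03, and a second probe with 10 repeated spots gave -0.19 and -0.11.

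**Figure D2:**
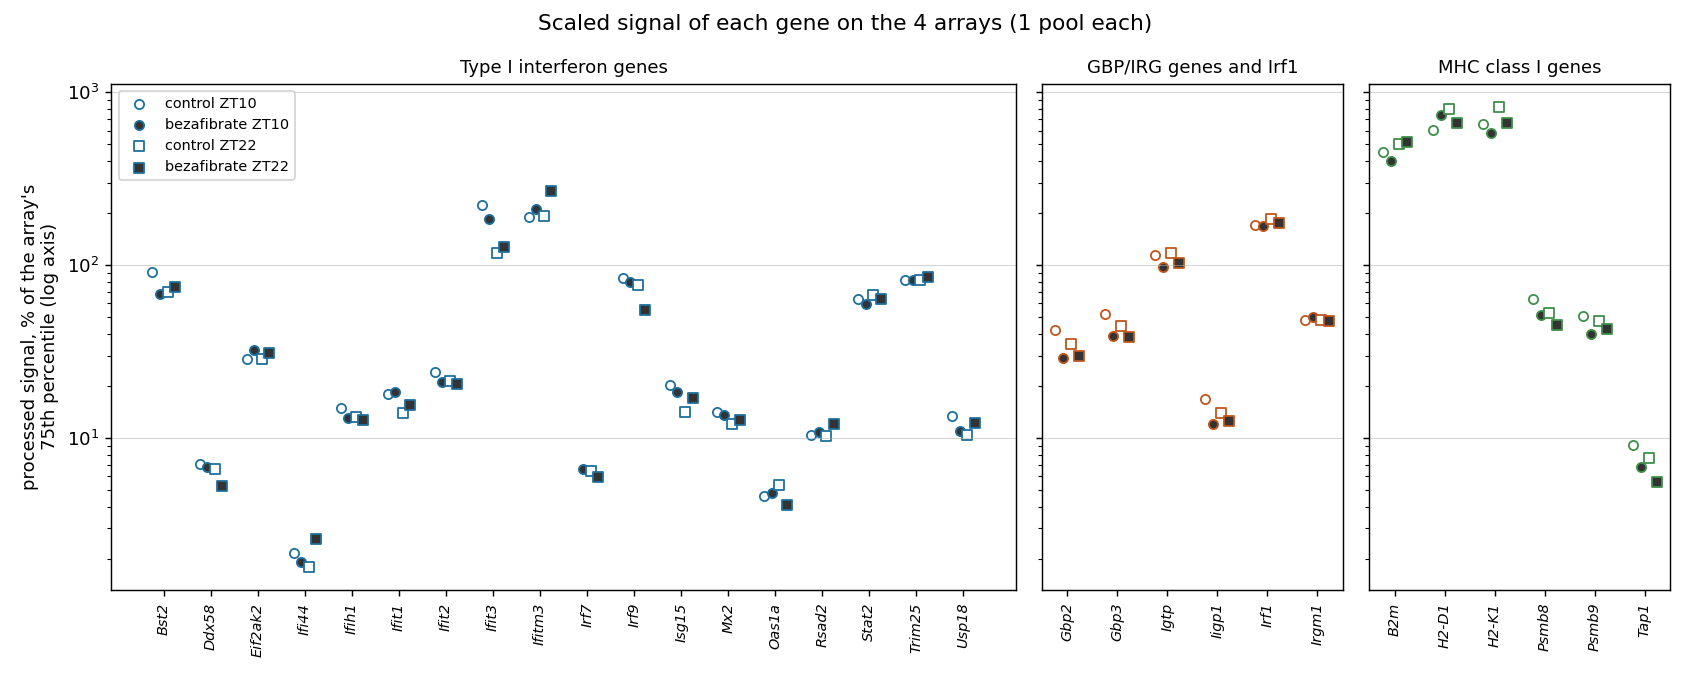
Processed signal of each gene on the 4 arrays as a percent of the array's 75th percentile (log axis), with open symbols for control and filled symbols for bezafibrate pools, circles for ZT10 and squares for ZT22. Filled symbols lie below open ones for Gbp2, Gbp3, Iigp1 and Tap1, and Ifit3 separates by time; heights of different genes are not comparable, because each is a different probe.

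Among the type I interferon genes 12 of 17 were lower in bezafibrate mice at ZT10, and 7 of 18 were lower and 11 higher at ZT22. Of all genes above background on both arrays, 47.3% were lower at ZT10 and 47.8% at ZT22. By over 1 scanner error, 3 type I genes were lower and 0 higher at ZT10, and 3 were lower and 5 higher at ZT22. The share of all genes beyond 1 scanner error was not computed for any comparison. Bst2, or tetherin, which holds budding virus at the cell surface, had signals of 918 in control and 713 in bezafibrate mice at ZT10, and of 710 and 665 at ZT22. The control pool of ZT10 stood above the other 3 pools, and the log2 ratios were -0.42 and 0.08. Ifitm3, a membrane protein that blocks viral entry, had 1910 and 2220 at ZT10, and 1940 and 2390 at ZT22. Both bezafibrate pools were above both control pools, with ratios of 0.16 and 0.48. Eif2ak2, the kinase PKR that stops translation on binding double-stranded RNA, had 289 and 337 at ZT10, and 288 and 278 at ZT22, with ratios of 0.17 and 0.13.

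Irf9, the DNA-binding partner of Stat2, had signals of 852 and 839 at ZT10 and of 775 and 493 at ZT22. The bezafibrate pool of ZT22 was the lowest, with ratios of -0.08 and -0.47, but a dimmer Irf9 probe gave 0.28 and 0.30. Oas1a, an oligoadenylate synthetase that activates RNase L, had 46.9 and 50.7 at ZT10, and 53.8 and 36.7 at ZT22, with ratios of 0.06 and -0.37, the latter -0.04 with normexp background correction. Ifi44, an interferon-induced cytoplasmic protein, was dim, with 21.9 and 20.1 at ZT10 and 18.1 and 23.2 at ZT22. Its ratios were -0.18 ± 0.38 and 0.54 ± 0.39, the latter the highest of the set and also the one with the largest scanner error.

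Usp18, the protease that removes Isg15 from proteins and damps type I signalling, had signals of 135 and 116 at ZT10 and of 105 and 109 at ZT22, with log2 ratios of -0.27 and 0.23. Isg15, the ubiquitin-like modifier itself, had 205 and 194 at ZT10, and 142 and 152 at ZT22, with ratios of -0.14 and 0.28. For Isg15 both ZT10 pools were above both ZT22 pools, also after scaling. Ifit3, described with the times of day, had diet ratios of -0.28 and 0.13. The remaining type I genes measured at ZT10 (Ifit1, Ifit2, Ifih1, Stat2, Mx2, Ddx58, Rsad2 and Trim25) had diet ratios between -0.19 and 0.06 at that time and between -0.32 and 0.23 at ZT22. They include the RNA sensors Ddx58 (RIG-I) and Ifih1 (MDA5), and Rsad2 (viperin), an enzyme that makes a chain-terminating nucleotide. Their dimmer probes departed in places at ZT22: Rsad2 had 0.23 by its brightest probe and -0.42 and -0.27 by the others, Ifit2 -0.06 and 0.46, and Ddx58 -0.32 (-0.05 with normexp) and 0.24. Trim25, a ubiquitin ligase that activates RIG-I, had a dimmer probe with a ratio of ZT22 over ZT10 in bezafibrate mice of 0.58, where the brightest gave 0.05. In that comparison Ifit2 had -0.05 by its brightest probe and 0.63 by the other, and Rsad2 had 0.16 against -0.51 and -0.45.

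Irf7, the regulator that amplifies type I interferon output, had signals of 69.4, 65.4 and 52.8 in bezafibrate mice at ZT10, control mice at ZT22 and bezafibrate mice at ZT22, and a ratio of -0.13 at ZT22. Its spot in control mice at ZT10 carried an outlier mark, so no ratio is given at ZT10. Mx1, a dynamin-like GTPase that blocks influenza virus, was not well above background on any array where its spots were kept.

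Most type I interferon genes were lower at ZT22 than at ZT10 in control mice. There 14 of 17 were lower, with a median log2 ratio of -0.17, against 40.4% of all genes below 0 and an all-gene median of 0.03. In bezafibrate mice 11 of 18 were lower, with a median of -0.04, against 40.8% of all genes and a median of 0.04. Of the 17 above background on all 4 arrays, 9 were lower at ZT22 in both diets, against 24.9% of all such genes. The time comparisons share their arrays with the diet comparisons, so a high or low pool enters both.

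Ifit3, of the same gene family as Ifit1, was the only gene of the set at 1.5-fold in any of the 4 comparisons. The 29 or 30 genes measured in each leave out Xaf1 and Mx1, and Irf7 in the comparisons that use control mice at ZT10. The signals of Ifit3 were 2260 and 1930 at ZT10 and 1180 and 1140 at ZT22, in control and bezafibrate mice. Both pools of ZT10 were above both pools of ZT22, and the log2 ratio of ZT22 over ZT10 was -0.94 in control and -0.53 in bezafibrate mice, or 1.92-fold and 1.44-fold lower. A second Ifit3 probe gave -0.83 and -0.59 and the third -0.33 and -0.01. Ifit3 has a near-identical neighbour, Ifit3b, for which no probe by name was used, so the signal may be shared. In control mice 3.01% of 17417 genes were 1.5-fold lower at ZT22 and 3.51% higher, and in bezafibrate mice 2.46% of 16770 were lower and 3.03% higher.

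Ifit1, which binds RNA that lacks a host cap, had signals of 182 and 194 at ZT10 and of 140 and 139 at ZT22, with time ratios of -0.38 in control and -0.25 in bezafibrate mice. Isg15 had time ratios of -0.53 and -0.12, Usp18 -0.36 and 0.14, and Bst2 -0.37 and 0.13. For these 3 the ratio was beyond the scanner error only in control mice, and the difference between diets was not tested, since each group is 1 pool. Irf9 had -0.14 and -0.53, with -0.60 and -0.58 by its dimmer probe. The GBP/IRG genes and Irf1 had medians of -0.11 in control and 0.05 in bezafibrate mice, with none beyond the scanner error in bezafibrate mice. The class I genes split: Tap1 (-0.25 and -0.29) and Psmb8 (-0.26 and -0.18) were lower at ZT22 in both diets, and B2m (0.16 and 0.35) and H2-K1 (0.33 and 0.19) were higher. H2-D1 (0.41 and -0.14) and Psmb9 (-0.08 and 0.10) differed in sign between the diets. With normexp the ratio of Tap1 in bezafibrate mice was 0.00. The dimmest H2-K1 probe gave 1.06 in control mice, at signals of 222 and 464.

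**Figure D3:**
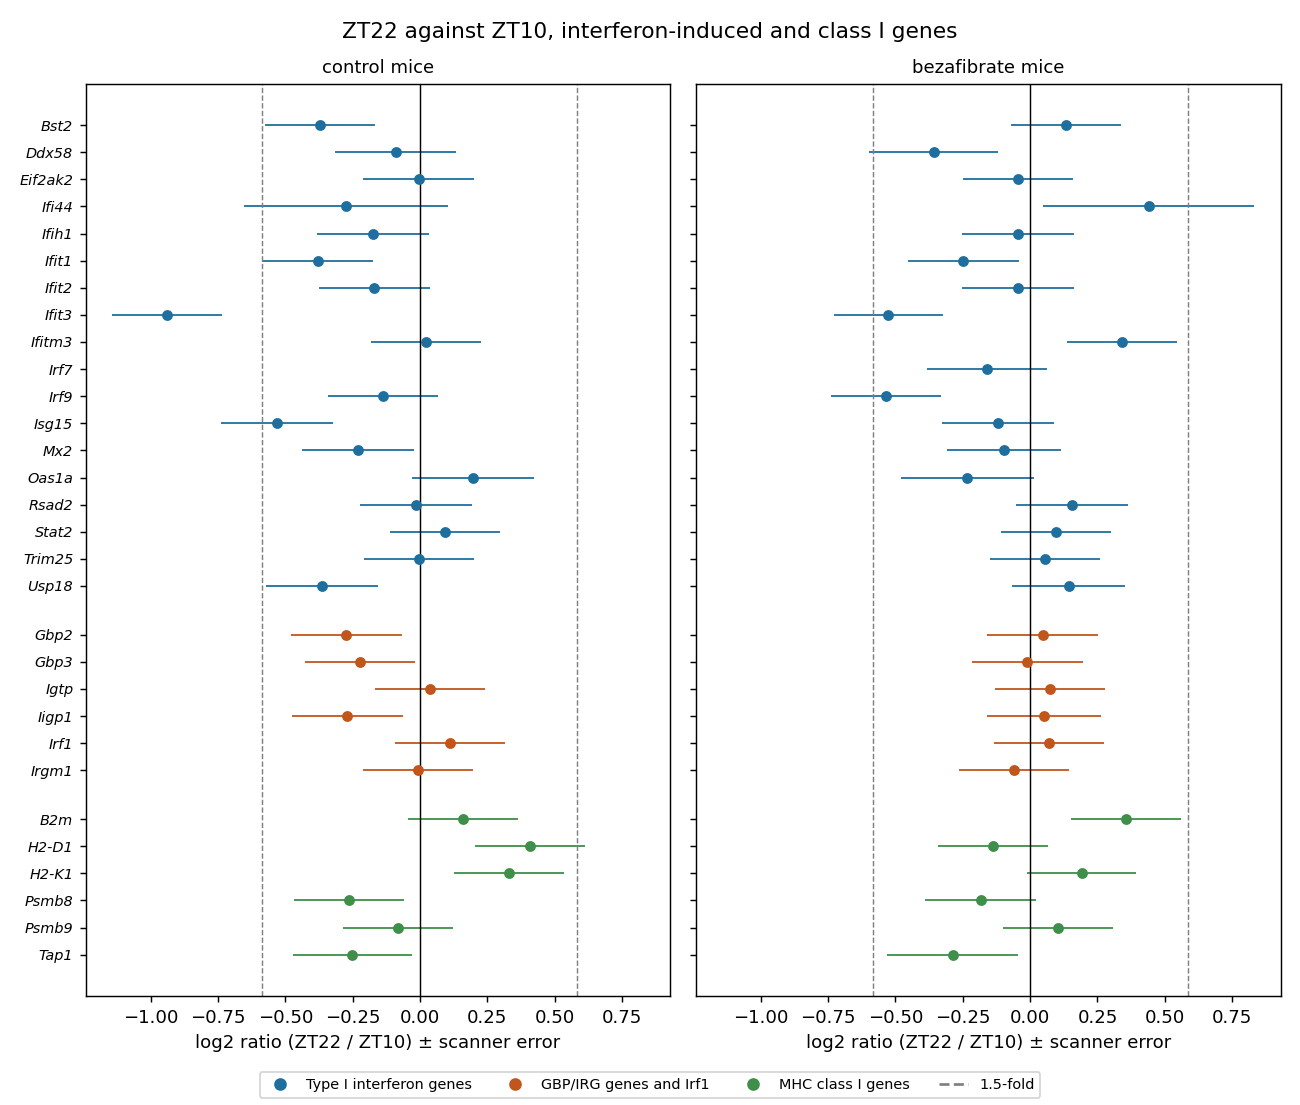
Log2 ratio of ZT22 over ZT10 in control mice (left) and bezafibrate mice (right) for each gene above background on both arrays, with scanner errors as bars and dashed lines at 1.5-fold. Ifit3 in control mice, at -0.94, is the single point beyond a dashed line.

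Averaged over both times, the effect of diet was fitted with limma over the 4 arrays in a model without interaction, which leaves 1 residual degree of freedom. Within a gene, that residual is the difference between the diet ratios of both times. It mixes noise of the pools with any unlike effect, so the SE does not measure the spread between mice or replicate pools. No gene of 17544 passed an adjusted p of 0.05 for diet (0%) or for time (0%), while 5.39% had an unadjusted p under 0.05 for diet and 10.7% for time. Of 29 genes of the set that were fitted, 3 were under 0.05 unadjusted for diet (Tap1, Psmb8 and Igtp) and 5 for time (Tap1, Psmb8, H2-K1, Ifit1 and Ifit3). Tap1 had the smallest, with a diet effect of -0.46 ± 0.05 (SE, log2) and a limma adjusted p of 0.872. For Ifit3 the time effect was -0.73 ± 0.14 (SE) with a limma adjusted p of 0.441. The scanner error of the Tap1 diet ratio, 0.23 at ZT10 and 0.24 at ZT22, was larger than the SE of its diet effect. Irf7 and Mx1 were not fitted.

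Upstream of these genes, most of the ligands were dim. Ifna2, Ifna4, Ifnb1, Ifnk and Ifne were not well above background on any array, Ifna1 had signals between 26.4 and 28.2, and Ifng between 72.2 and 87.9. Ifnar1, the first chain of the type I receptor, had 1140 and 1770 at ZT10, and 1350 and 1270 at ZT22, with diet ratios of 0.58 and 0.09. Ifngr1, the ligand-binding chain of the gamma receptor, had ratios of -0.09 and -0.05. Of the 20 measured genes of the list of interferons, receptors and signalling, 0 reached 1.5-fold in any comparison, and the medians were -0.03 and -0.03 for diet. Of 15 sensors and adaptors, 1 was 1.5-fold lower at ZT10 (the kinase Ikbke, dim, at -0.59), where the all-gene share was 2.41%, and 0 at ZT22, with medians of -0.03 and 0.03. Ticam1, the adaptor of Tlr3, was higher at ZT22 than at ZT10 in bezafibrate mice, at 0.82.

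The list of other interferon-induced genes had diet medians of -0.09 at ZT10 and 0.02 at ZT22. Counting bounds, 3 of 43 were 1.5-fold lower and 3 higher at ZT10, and 3 of 44 lower and 1 higher at ZT22, beside all-gene shares of 2.41% and 1.44% at ZT10 and 3.54% and 2.0% at ZT22. Cxcl10, a chemokine that attracts activated T cells, had signals of 108 and 209 at ZT10 and of 57.4 and 50.7 at ZT22. The ZT10 pools were above the ZT22 pools, the bezafibrate pool of ZT10 was the highest, and the log2 ratios were 0.90 and 0.00 for diet and -0.91 and -1.81 for time in control and bezafibrate mice. Trim30a, a TRIM protein, had 48.0 and 41.9 at ZT10, and 45.9 and 82.4 at ZT22, with diet ratios of -0.25 and 1.02. Tgtp1, a GTPase of the IRG family, had 141 and 88.5 at ZT10, and 160 and 110 at ZT22, so that both bezafibrate pools were lower, at -0.73 and -0.36. Gbp4 was dim, with 24.6 and 13.9 at ZT10 and 37.7 and 18.3 at ZT22, and was at least 1.84-fold lower in bezafibrate mice at ZT10 and 1.82-fold lower at ZT22. Among dim genes, Oas1b had a diet ratio of 0.87 and Trim34a of 0.82 at ZT10, and Oas2 was at least 1.73-fold lower in bezafibrate mice at ZT22. Gbp9 had diet ratios of -0.53 and 0.16 and a time ratio of 0.74 in bezafibrate mice. Other listed GBP and IRG genes stayed below 1.5-fold for diet. Gbp6 had -0.07 and 0.07, Irgm2 -0.08 and -0.14, and Ifi47, dim, 0.01 and 0.04. Gbp5 (-0.25 and -0.45) and Gbp7 (-0.14 and -0.30) were lower at both times.

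**Figure D4:**
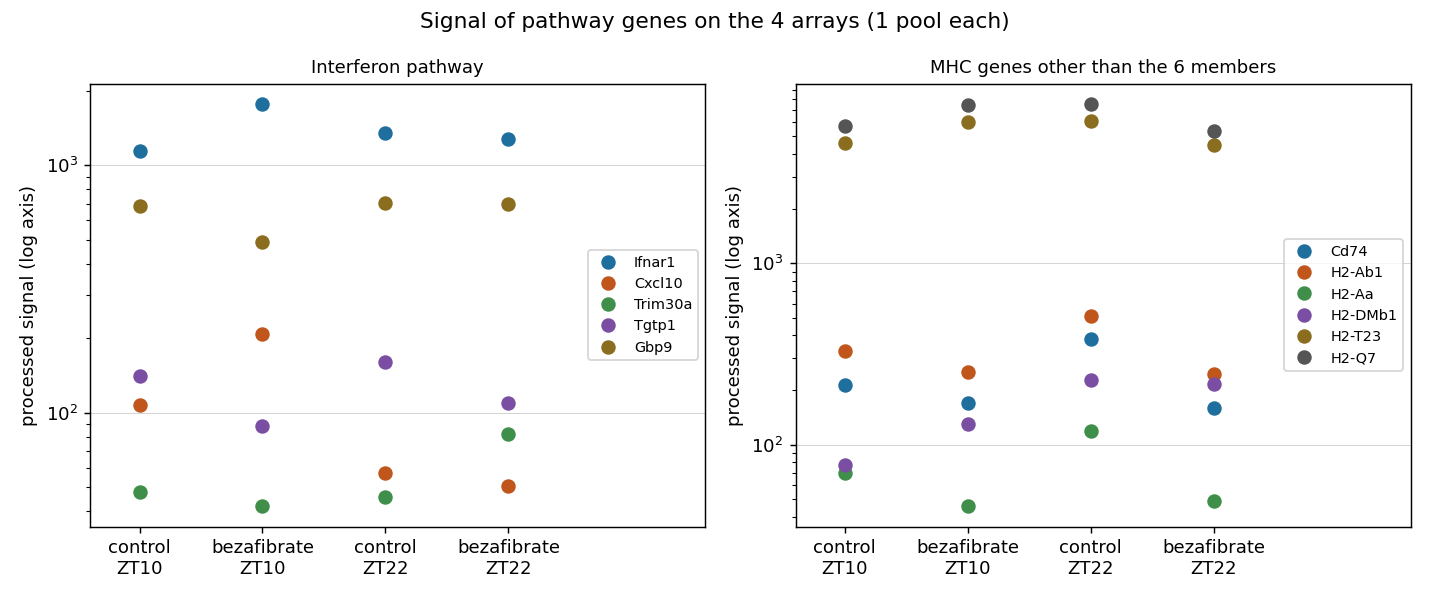
Processed signal (log axis) of selected interferon pathway genes (left) and of MHC genes outside the set (right) on the 4 arrays, 1 pool each. Cxcl10 is highest in bezafibrate mice at ZT10, at 209, and Cd74, H2-Aa and H2-Ab1 are highest in control mice at ZT22.

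Genes of antigen processing outside the set were centred near 0 for diet, with medians of -0.01 at ZT10 and -0.02 at ZT22. Tap2, the partner of Tap1, had 225 and 197 at ZT10, and 176 and 201 at ZT22, and ratios of -0.25 and 0.37, while Tapbp (tapasin), which links the transporter to class I, had -0.12 and -0.05. No probe by the name Nlrc5, the class I transactivator, was used. Of the MHC class II genes, which present peptides to CD4+ T cells, some had the largest ratios of that list, while H2-Eb1 (0.15 and -0.32) and H2-DMa (0.02 and 0.00) did not reach 1.5-fold. Cd74, the invariant chain, had signals of 214 and 169 at ZT10 and of 381 and 159 at ZT22, with ratios of -0.40 and -1.08. H2-Aa had -0.66 and -1.10, and H2-Ab1 -0.44 and -0.89. H2-DMb1, the peptide editor of class II, differed, with 0.69 and 0.11 for diet and 1.54 for time in control mice. Ciita, the class II transactivator, was dim, with signals of 13 and 10.5 at ZT10 and of 23.9 and 23.9 at ZT22. Its time ratio was 0.88 (scanner error 0.36) in control mice, and it was at least 2.07-fold higher at ZT22 in bezafibrate mice.

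**Figure D5:**
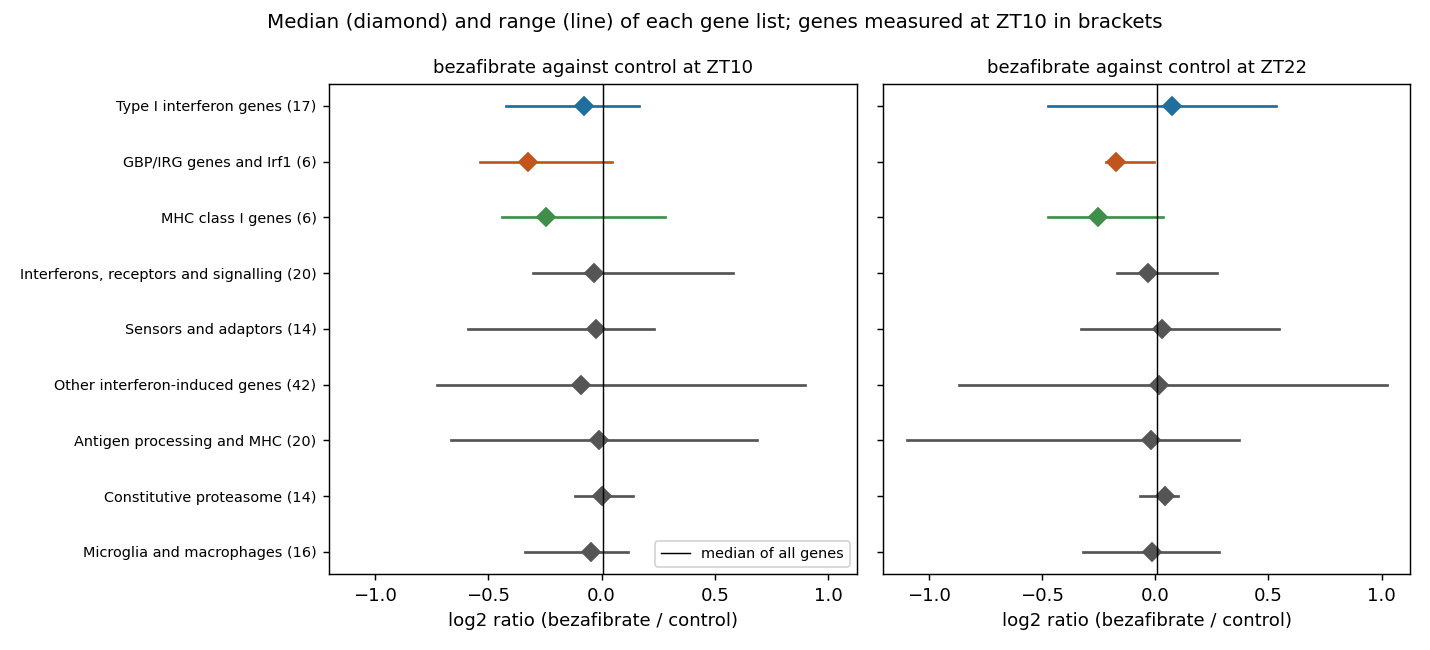
Median (diamond) and range (line) of the log2 ratio of bezafibrate over control for the 3 groups of the set, 5 further gene lists and the microglial markers, at ZT10 (left) and ZT22 (right). The GBP/IRG and class I medians lie left of the all-gene median at both times, and the constitutive proteasome spans -0.12 to 0.14.

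Markers of cells that carry these genes were read on the same arrays. The 16 microglial and macrophage markers had diet medians of -0.05 and -0.01, and their summed level, in units of the 75th percentile, was 34.8 to 36.4 on the 4 arrays. The 13 endothelial markers had 0.03 and -0.04, and the 7 astrocyte markers -0.07 and 0.03. Of 13 T and NK cell markers, 6 were measured at ZT10 with a median of -0.21 and 7 at ZT22 with 0.03, while Cd3g, Cd3d, Cd8a, Gzma and Prf1 were not above background on any array. Among the B cell markers Ms4a1 was not above background on any array, and Cd79a had signals of 35.1, 10.4, 167 and 13.5 in control and bezafibrate mice at ZT10 and then at ZT22, with the highest in the same pool as that of Cd74 and H2-Aa. The part of B cells in the class II ratios was not tested. Of 8 neutrophil markers, 2 were measured, with diet medians of -0.03 and -0.10, and the 2 blood markers measured had 0.03 and -0.31.

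Neighbouring tissue in the block differed as well. All 10 fibroblast and meningeal markers were lower in bezafibrate mice at ZT10, with a median of -0.20, and higher at ZT22 than at ZT10 in both diets, with medians of 0.32 and 0.63; their summed level was 11.3 and 9.9 at ZT10 and 14.1 and 13.4 at ZT22. For diet at ZT22, 7 of these 10 markers were lower and 3 higher (median -0.04). Choroid plexus markers had diet medians of -0.06 at ZT10 and 0.88 at ZT22. Oligodendrocyte markers had -0.07 and -0.29, and all 7 were lower in bezafibrate mice at ZT22. The 6 pituitary markers measured at ZT10 were lower in bezafibrate mice (median -0.75). At ZT22, 3 of the 4 above background on both arrays were higher (median 0.34), and 2 of the 6 counted with bounds were 1.5-fold lower. Of 14 hypothalamic markers, 12 were above background on all 4 arrays, with diet medians of -0.15 and 0.15. The part of these cell types in the ratios of the GBP/IRG and class I genes was not tested.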

How the data were processed

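Hypothalamic RNA was measured on 4 one-colour (Cy3) whole-mouse-genome arrays, each of 1 pool of 4 mice. Per the file headers, the authors extracted spots using Feature Extraction 9.5.1.1. Their processed signal, as deposited, is an intensity after background subtraction and before any normalization between arrays; low values carry a surrogate. Each sample held both arrays of its time; diet was taken from the labels and file names, and was checked against the direction of the deposited ratio. The authors' deposited ratio table (bezafibrate over control) was an alternative only: each column was the unscaled ratio of processed signals shifted by a constant (log2 -0.14 for ZT10, 0.10 for ZT22; 99.6% of spots within 0.05), and the column medians were -0.08 and -0.06 (log2).

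The log2 processed signal minus each array's 75th percentile over non-control features was used. Outlier-marked spots (73 to 142 per array) were left out, spots of a probe were averaged and the brightest probe represented a gene. Probes were named through accession, symbol or older symbol with the RefSeq table of GRCm38.p6, used for names only; 6204 of 41174 probes had no gene name. A gene dim on 1 of the 2 arrays entered counts through a bound. The additive fit used limma 3.58.1 (R 4.3.3, Benjamini-Hochberg) on genes above background on at least 1 array and with no marked spot. Counting and the fit were run on simulated data with 2-fold effects and noise below the scanner error of the ratios. Those runs checked the calculation and do not measure the precision reached in these data.

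The named genes were those at 1.5-fold in any comparison, the 2 highest and 2 lowest ratios of each group in each diet comparison, up to 6 genes at 1.5-fold per further list, and Ifnar1, Ifngr1, Nlrc5, Cxcl10, Tap2 and Tapbp. A probe departing by over 0.5 (log2) is given for some comparisons. Not every gene or probe departure under these rules is reported here. Any further gene was picked with its values in view. The members, groups and lists were chosen with earlier results of these data known.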

Additional observations from a re-analysis of the deposited data

Results flagged for a closer look

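H2-D1 had log2 ratios of bezafibrate over control of 0.28 at ZT10 and -0.27 at ZT22, each beyond its scanner error of 0.20 and opposite in sign, a difference of -0.55. Usp18 had -0.27 and 0.23, a difference of 0.51. With 1 pool per group, neither difference between times was tested.

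Both remaining results come from spots that the scanner software marked as outliers and that enter no comparison above. The Irf7 spot read 259 in control mice at ZT10, where the other 3 arrays read 52.8 to 69.4, and with it the log2 ratios would be -1.96 for diet at ZT10 and -1.99 for time in control mice. The authors' deposited table gives Irf7 a ratio of 0.243 at ZT10. The Mx1 spot read 65.2 in control mice at ZT22, where the other 3 arrays read 2.0 to 4.58 and were not well above background.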

How the results depend on the processing

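The 12 group medians were recomputed under 10 alternatives where they applied. Of 106 values, 98 moved by less than the typical spread between probes of a gene, and 103 kept their sign. For the GBP/IRG genes and Irf1 at ZT10 (main value -0.33) the median was -0.22 with normexp background correction, -0.23 with the files' symbols alone (5 of the 6 genes named), -0.41 in the authors' deposited table and -0.42 without Irf1. The deposited table also gave -0.17 for the type I interferon genes and -0.33 for the class I genes at ZT10; its median over all spots was -0.08. A mean signal of at least 100, which drops Tap1, moved the class I time medians from 0.04 to 0.16 in control and from -0.02 to 0.10 in bezafibrate mice; normexp gave 0.05 in the latter, and 0.03 in place of -0.04 for the type I genes there. Members at 1.5-fold became 2 at ZT10 with the deposited table (Gbp2, and Irf7 through its marked spot), 1 at ZT22 with quantile normalization (Ifi44, 0.62), 1 in bezafibrate mice between times with no filter (Mx1, dim), and 0 in control mice between times at 2-fold. The additive fit gave 0 genes at an adjusted p of 0.05 for diet and for time with the stricter filter and with quantile normalization, as before; unadjusted counts were 1013 and 2404, and 918 and 1925. Of 977 ratios of single genes under an alternative, 957 moved by less than the scanner error. Some alternatives change only which genes count and leave a single ratio as it was. Only Ifit3 in control mice was called at 1.5-fold, and it kept its sign. Uncalled ratios could change sign: averaging all probes moved Rsad2 at ZT22 from 0.23 to -0.15 and H2-K1 at ZT10 from -0.18 to 0.16. It gave Ifit3 -0.70 between times in control mice. Normexp gave Gbp2 -0.24 at ZT10 and, at ZT22, Tap1 -0.19, Oas1a -0.04 and Ddx58 -0.05. With 1 array per group no replicate could be left out. Dim probes, such as Ifi44, limit the precision.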
